A study of Mus musculus with 7 samples.

Results

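The genes described here are 10 members of the ADP-ribosylation machinery: 9 genes for poly(ADP-ribose) polymerases (PARPs) and Dtx3l, which encodes the ubiquitin ligase that partners PARP9. They were taken by name as the transcript clusters with exactly 1 gene symbol, and all 10 were found, each with 1 cluster, among 19752 genes measured. Expression was measured on 7 Affymetrix Mouse Gene 1.0 ST arrays, each of RNA from spleen cells of 6-week-old male C57BL/6 mice that had been enriched for natural killer (NK) cells by EasySep negative selection. The untreated group (replicates 2, 3 and 4) was kept in vitro for 8 h and is labelled untreated, and the IL2 group (replicates 1 to 4) for 8 h with interleukin 2 at 250 U/ml. No genotype or other agent differed between the groups by the labels. Whether the replicates were different mice or different cultures is not in the labels, and the p-values therefore cover the spread among these 7 samples and nothing wider.

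PARP enzymes split NAD+ and attach its ADP-ribose part to proteins, either as single units or as chains. PARP1, PARP2 and PARP3 recognise broken DNA and help to recruit repair factors, and their genes are expressed in most cells. PARP9, PARP10, PARP11, PARP12 and PARP14 are known as products of interferon-inducible genes, as is DTX3L, and several of them carry macrodomains or zinc fingers and act in antiviral defence. PARP8 adds single units and is less well studied, and it was set in neither class. The comparison made was that of the 6 interferon-linked genes and the 3 DNA-repair genes between IL2 and untreated cells.

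Of the 6 interferon-linked genes, 4 rose with IL2 (Parp9, Dtx3l, Parp14 and Parp12), by 2.47 to 3.10 times, and 0 fell. Only 1 of the 6, Dtx3l, was called when untreated replicate 4 or IL2 replicate 2, 3 or 4 was left out. For all 6, every IL2 array lay above every untreated array. Of the 3 DNA-repair genes, Parp3 rose 1.48-fold, while Parp1 and Parp2 did not pass the test. Calls were made with limma at a Benjamini-Hochberg adjusted p under 0.05 over all 19752 genes, of which 2.08% were called higher, 0.901% lower and 2.98% either way. Every IL2 array lay above every untreated array for 6.25% of all genes, and below for 667 of the 19752. An unadjusted limma p under 0.05 was reached by 2662 of the 19752. The median log2 fold change was 1.36 over the 6 interferon-linked genes, -0.02 over the 3 DNA-repair genes and -0.02 over all genes tested. A difference in change between the 2 classes was not tested.

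**Figure D1:**
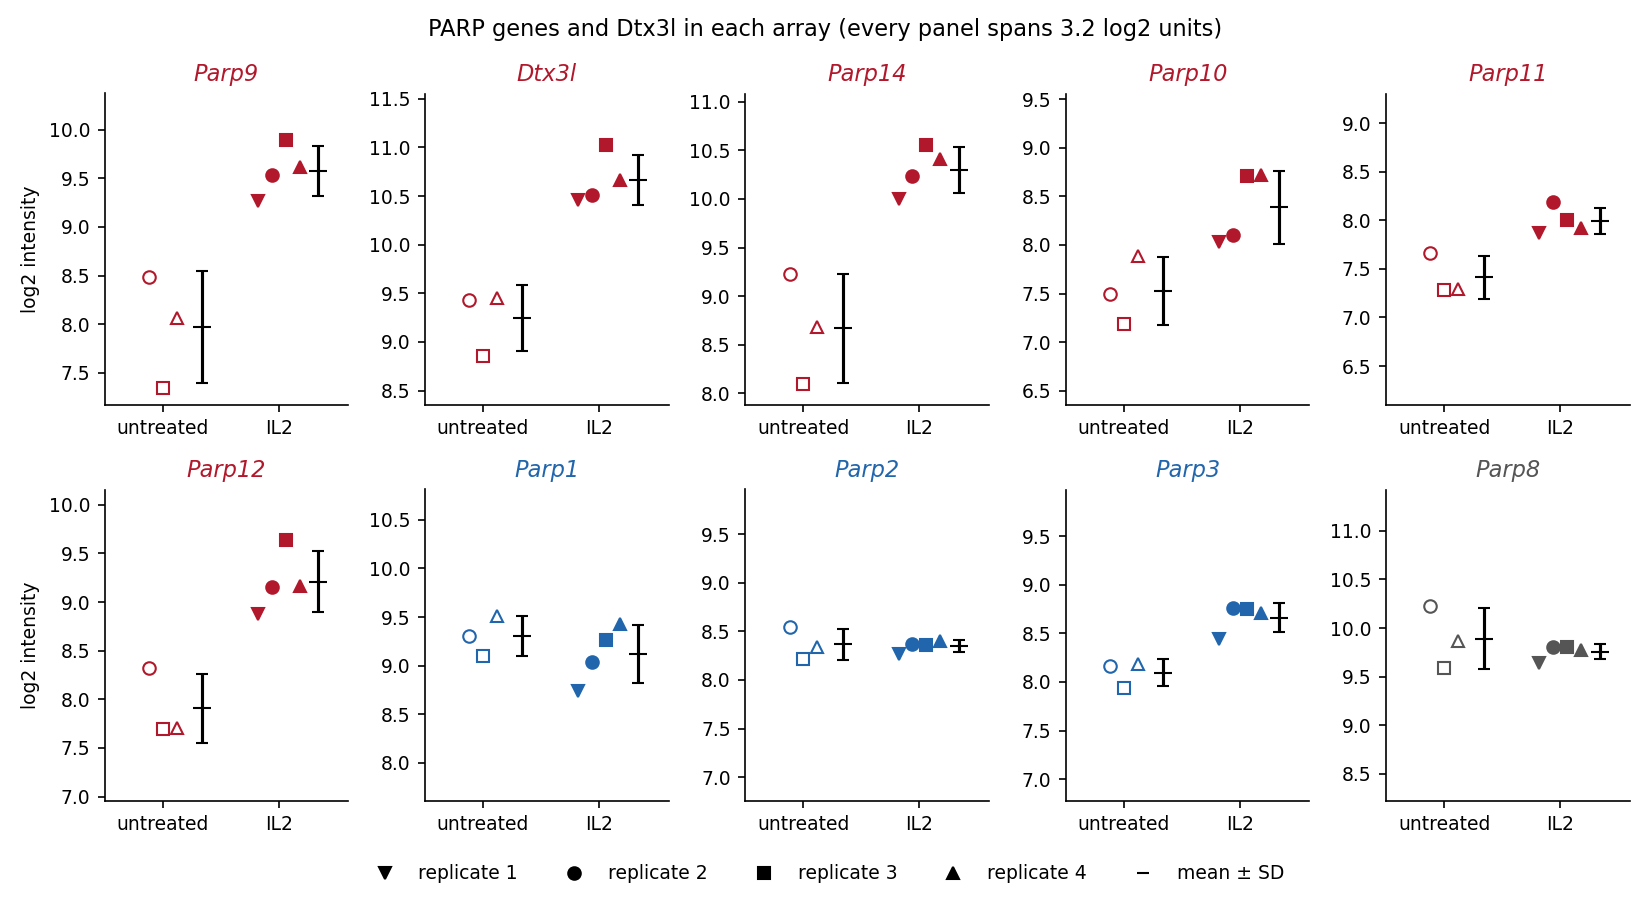
Log2 intensity of the 10 genes (vertical axis, 3.2 log2 units in every panel) in untreated (open symbols) and IL2 (filled symbols) arrays, with the symbol giving the replicate number and the bar the mean ± SD (n = 3 untreated, n = 4 IL2). The IL2 arrays lie above all untreated arrays for the 6 interferon-linked genes (red) and Parp3, and overlap them for Parp1, Parp2 and Parp8.

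Cell type markers moved between the same arrays, and 2 arrays stood low for these genes. Of 9 measured markers of monocytes and macrophages 7 fell with IL2, and their summed intensity went from 13430 to 14420 in the untreated arrays to 3731 to 5563 in the IL2 arrays (3 fell without untreated replicate 4 or IL2 replicate 2, and 4 without IL2 replicate 3). Of 10 NK cell markers 6 rose, among them Ncr1 (the activating receptor NKp46) by 2.18 on the log2 scale, and the summed intensity was 7266 to 11710 against 25180 to 30650 (9 rose without untreated replicate 2). The list also holds genes that IL2 is known to raise. The B cell markers summed to 15590 to 17850 against 13250 to 14010, with 1 of 9 lower (5 after renewed quantile normalization, and 0 when an untreated array, IL2 replicate 2 or IL2 replicate 3 was left out). The neutrophil markers summed to 6117 to 7165 against 2503 to 4037, with 1 of 10 lower (4 after renewed quantile normalization or with the replicate block, and 5 with a block for title style). T cell markers had 0 of 10 called by limma (0 with an unadjusted p under 0.05) and summed to 2037 to 3265 against 1941 to 3444. Dendritic cell markers had 1 of 10 lower (2 lower and 1 higher after renewed quantile normalization) and summed to 2257 to 2810 against 2071 to 2483. This sum hides changes both ways: 6 of the 10 had an unadjusted limma p under 0.05, against 2662 of all 19752 genes. For 3 markers every IL2 array lay above every untreated array, and for 3 below. The dendritic cell marker Bst2 is also in the list of interferon-stimulated genes below. No marker had an intensity of 0 on any array, since the deposited values are all above 0. The part of cell composition in the changes below was not tested, and in such bulk samples fewer cells of a type and less RNA per cell cannot be told apart. Array medians ran from 121 to 131 intensity units over all probes. The upper quartile of all genes was 259.4 in untreated replicate 3 and 267.7 in IL2 replicate 1. In the other arrays it was 296.9 to 338.1. All 10 genes were at percentile 66.5 of mean signal or above, so the shares of all genes given next also cover dimmer genes. Untreated replicate 3 was the lowest untreated array for all 10 genes, as it was for 33.0% of all genes, and IL2 replicate 1 the lowest IL2 array for all 10, as for 37.6% of all genes. Without untreated replicate 3, 3 of the 6 interferon-linked genes were called higher, and without IL2 replicate 1, 4 were, against 1 for each of the 4 removals named above and 5 without untreated replicate 2.

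Parp9, Dtx3l and Parp14 lie next to each other on chromosome 16 and had the largest changes of the 10 genes. PARP9 has macrodomains that bind ADP-ribose and shows little activity on its own, and DTX3L is the ubiquitin ligase with which it forms a complex. The intensity of Parp9 (transcript cluster 10435457; GRCm38.p6 chr16:35938470-35972621) was 358, 163 and 268 in untreated replicates 2, 3 and 4, and 616, 743, 952 and 784 in IL2 replicates 1 to 4. The lowest IL2 array was thus above the highest untreated array, and on the log2 scale the untreated arrays were spread more widely than the IL2 arrays. On the log2 scale it went from 7.97 ± 0.58 (SD, n = 3) to 9.58 ± 0.26 (n = 4), a rise of 1.61 (SE 0.26, 95% interval 1.00 to 2.23, limma adjusted p = 0.020), or 3.06-fold. The call ended without untreated replicate 4 or IL2 replicate 2, 3 or 4 (limma adjusted p of 0.0791 to 0.0945), and the log2 fold change was 1.30 to 1.87 with each array left out in turn.

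The intensity of Dtx3l (10439268; chr16:35926515-35939027) was 692, 462 and 699 in the untreated arrays and 1404, 1456, 2091 and 1619 in the IL2 arrays. Its groups stood farthest apart of the 10 genes, with a gap of 1.01 log2 units between the highest untreated and the lowest IL2 array. Dtx3l rose by 1.42 (SE 0.19, 95% interval 0.97 to 1.87, limma adjusted p = 0.0102), or 2.67-fold, from 9.25 ± 0.34 (SD, n = 3) to 10.66 ± 0.26 (n = 4). It was the only one of the 10 genes whose call survived the removal of any single array, at limma adjusted p-values of 0.0176 to 0.0476.

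PARP14, which also carries macrodomains, adds single ADP-ribose units and is known as a co-activator of STAT6. The intensity of Parp14 (10439249; chr16:35831892-35871518) was 598, 274 and 412 in the untreated arrays and 1023, 1209, 1504 and 1357 in the IL2 arrays. As for Parp9, the untreated arrays spanned more than a doubling, and every IL2 array was above them. The gene rose by 1.63 (SE 0.26, 95% interval 1.04 to 2.23, limma adjusted p = 0.0170), or 3.10-fold, which ranked 92 among the log2 fold changes of all 19752 genes, with Parp9 at rank 94 and Dtx3l at 118. Without untreated replicate 4 or IL2 replicate 2, 3 or 4 its call ended (limma adjusted p of 0.0692 to 0.0919).

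**Figure D2:**
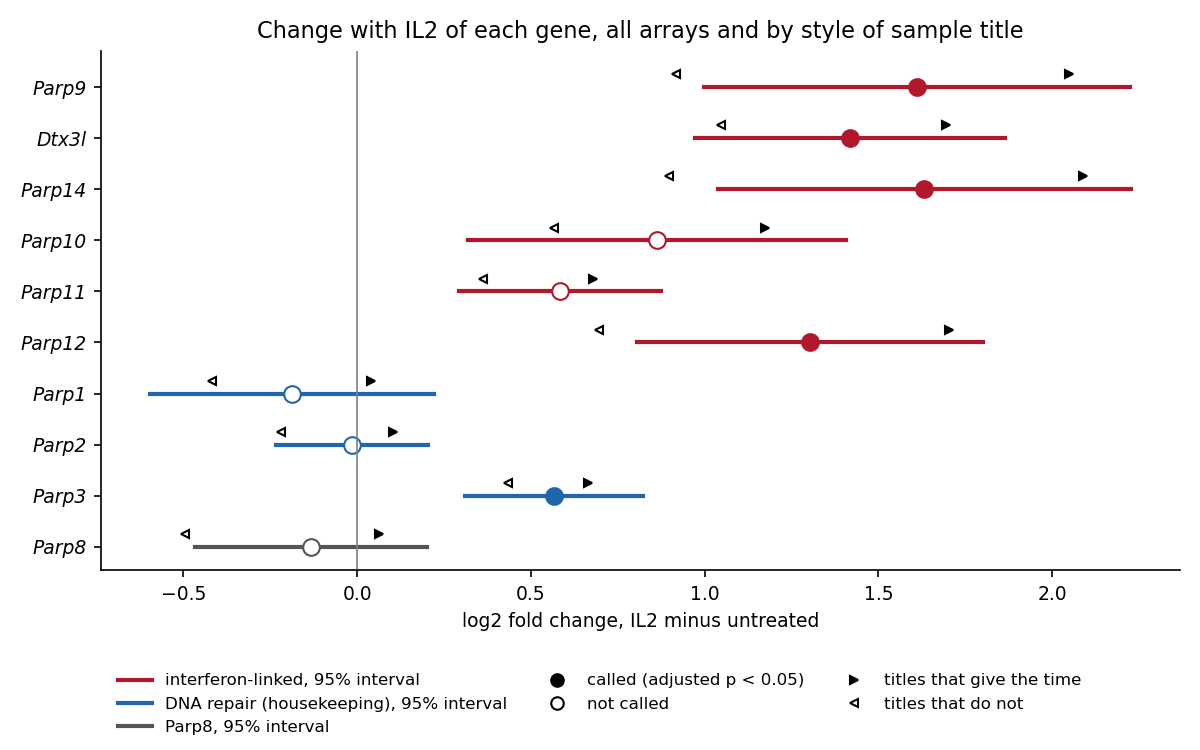
Log2 fold change (horizontal axis, IL2 minus untreated) of each gene with the 95% interval of limma's moderated fit. Circles are filled where the gene was called, and triangles give the same difference within arrays titled with the time and within arrays titled without it. The intervals of Parp9, Dtx3l, Parp14 and Parp12 lie above 0.80, and those of Parp1, Parp2 and Parp8 include 0.

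None of the genes measured beside this group of 3 was called. In the RefSeq gene order Sema5b, Slc49a4 and Hspbap1 lie on the Parp14 side and Kpna1, Wdr5b and Fam162a on the Parp9 side. Limma called 0 of these 6 neighbours, of which 1, Slc49a4, had an unadjusted p under 0.05 (0.0115). Over all 19752 genes, 2662 had one. Their log2 fold changes were 0.02, -0.38 and -0.24 for Sema5b, Slc49a4 and Hspbap1, and -0.002, 0.05 and 0.28 for Kpna1 (an importin), Wdr5b and Fam162a. The upper limits of their 95% intervals ran from -0.11 to 0.67, below the lower limits of the 3 members, which ran from 0.97 to 1.04. Wdr5b had the same value of 139 on all 3 untreated arrays, so that its spread is understated.

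**Figure D3:**
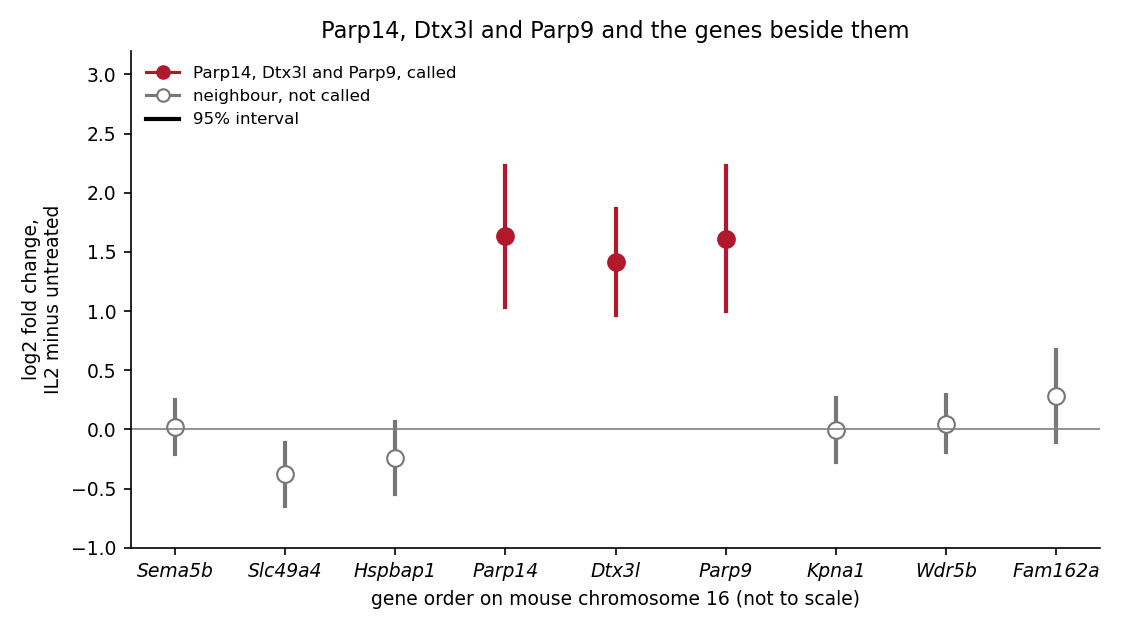
Log2 fold change with its 95% interval (vertical axis) of Parp14, Dtx3l and Parp9 (red) and of the 3 named protein-coding genes on each side (grey), in their order on mouse chromosome 16. The 3 members lie at 1.42 to 1.63 and the 6 neighbours at -0.38 to 0.28.

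The annotated spans of Parp9 and Dtx3l overlap by 558 bases at the start of both, and these genes are known to share a promoter that responds to interferon-gamma. No source used here places the array's probes within the genes, and whether the clusters share signal was not tested. The RefSeq table of promoter windows (GRCm38.p6, 250 bases before to 50 after a start site) held 8 windows for 7 of the 10 genes, which were Dtx3l, Parp11 (2 windows), Parp12, Parp1, Parp2, Parp3 and Parp8. The 250 bases upstream are shown for the 3 interferon-linked genes with a window, read 5′ to 3′ on the gene's strand. They are chr16:35939028-35939277 for Dtx3l (minus strand, inside the annotated span of Parp9), chr6:39118350-39118599 for Parp12 (minus strand) and chr6:127446590-127446839 for the first window of Parp11 (plus strand). Capitals mark letter matches to the GAS and ISRE motifs described in the next paragraph.
Dtx3l: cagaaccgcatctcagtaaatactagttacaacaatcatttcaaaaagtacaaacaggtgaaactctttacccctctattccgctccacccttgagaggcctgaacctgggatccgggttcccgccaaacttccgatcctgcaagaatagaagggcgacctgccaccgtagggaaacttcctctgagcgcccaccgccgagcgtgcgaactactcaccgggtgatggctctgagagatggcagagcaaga
Parp12: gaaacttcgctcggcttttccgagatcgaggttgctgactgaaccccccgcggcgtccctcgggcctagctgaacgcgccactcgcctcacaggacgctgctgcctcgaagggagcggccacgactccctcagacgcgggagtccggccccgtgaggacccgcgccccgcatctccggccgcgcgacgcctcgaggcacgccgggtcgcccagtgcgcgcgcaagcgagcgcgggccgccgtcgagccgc
Parp11: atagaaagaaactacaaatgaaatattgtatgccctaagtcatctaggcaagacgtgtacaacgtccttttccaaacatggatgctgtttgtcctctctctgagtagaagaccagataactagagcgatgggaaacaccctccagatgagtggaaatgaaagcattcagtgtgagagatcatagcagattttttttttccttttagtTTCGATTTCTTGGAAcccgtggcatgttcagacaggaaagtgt

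GAS, an element known from interferon-gamma-activated genes, was searched as TTCNNNGAA, which reads the same on both strands. The core of ISRE, an element known from interferon-stimulated genes and bound by IRF factors, was searched as GAAANNGAA on both strands. Of all 32851 windows of 300 bases in the table, 8.3% held a GAS match and 8.56% an ISRE core match. Among the 8 windows of the members, only the first window of Parp11 held either, and it held both. They were an ISRE core match on the minus strand (chr6:127446797-127446805) and a GAS match (chr6:127446803-127446811) that overlaps it by 3 bases. These start at positions -43 and -37 from the start site of that window. The site lies inside the annotated span of Parp11, and so do the last of the upstream bases shown. The windows of Dtx3l and Parp12 held neither set of letters, nor did those of Parp1, Parp2, Parp3 and Parp8. The upstream parts shown had 52.8% G and C for Dtx3l, 73.6% for Parp12 and 40.4% for Parp11. These matches describe the letters of these windows and show no binding.

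The other 3 interferon-linked genes lie elsewhere and changed to different extents. PARP12 has zinc fingers that bind RNA and adds single ADP-ribose units. The intensity of Parp12 (10544133; chr6:39086412-39118349) was 320, 207 and 208 in the untreated arrays and 469, 572, 794 and 576 in the IL2 arrays. IL2 replicate 3 was the highest array and untreated replicate 2 stood above the other untreated arrays, with no overlap between groups. Parp12 rose by 1.30 (SE 0.22, 95% interval 0.80 to 1.80, limma adjusted p = 0.0204), or 2.47-fold. Its call held only without IL2 replicate 1 or untreated replicate 2, with limma adjusted p-values of 0.0587 to 0.111 without any other array.

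PARP10 adds single ADP-ribose units and carries an RNA recognition motif. Its gene (10429843; chr15:76232995-76243440) had intensities of 181, 146 and 237 in the untreated arrays and 261, 275, 417 and 422 in the IL2 arrays. The IL2 arrays fell into a lower pair (replicates 1 and 2) and a higher pair (replicates 3 and 4), and the lower pair was close to untreated replicate 4. The log2 fold change of Parp10 was 0.86 (SE 0.23, 95% interval 0.32 to 1.41), 1.82-fold, and did not pass the test (limma adjusted p = 0.125), nor did it with any array left out. It passed after the arrays had been quantile normalized again (0.80, limma adjusted p = 0.0278).

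PARP11 is linked to the nuclear envelope and, in antiviral defence, to the turnover of a type I interferon receptor chain. Parp11 (10542040; chr6:127446830-127514233) had intensities of 203, 155 and 156 in the untreated arrays and 235, 291, 257 and 242 in the IL2 arrays. Its groups did not overlap, but untreated replicate 2 came near the lowest IL2 array. The log2 fold change was 0.58 (SE 0.13, 95% interval 0.29 to 0.88), 1.5-fold, with a limma adjusted p of 0.0567 that missed the threshold. It passed without untreated replicate 2 (0.71, limma adjusted p = 0.0292). It also passed with a block for replicate number or for title style, with array quality weights, after renewed quantile normalization and with the dimmer genes left out, at limma adjusted p-values of 0.0325 to 0.0463.

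Of the DNA-repair genes only Parp3 passed the test. PARP1 is the main sensor of DNA breaks and makes most of the cell's ADP-ribose chains. The intensity of Parp1 (10352242; chr1:180568891-180600999) was 633, 549 and 728 in the untreated arrays and 427, 526, 615 and 689 in the IL2 arrays, so that the groups overlapped. Its log2 fold change was -0.19 (SE 0.18, 95% interval -0.60 to 0.22, limma adjusted p = 0.746).

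PARP2, which takes over part of the work of PARP1, had the smallest difference of the 10. The intensity of Parp2 (10414497; chr14:50807897-50821301) was 372, 299 and 323 in the untreated arrays and 308, 332, 329 and 339 in the IL2 arrays. All 4 IL2 arrays lay within the untreated range. Its log2 fold change was -0.02 (SE 0.09, limma adjusted p = 0.973), with a 95% interval from -0.23 to 0.20 that excludes a change of the size seen in Parp3.

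PARP3 acts in the joining of double-strand breaks. The intensity of Parp3 (10596492; chr9:106470322-106476949) was 287, 245 and 292 in the untreated arrays and 347, 433, 430 and 418 in the IL2 arrays. The groups did not overlap, and IL2 replicate 1 stood below the other IL2 arrays. Parp3 rose by 0.57 (SE 0.11, 95% interval 0.31 to 0.82, limma adjusted p = 0.0403). Its size was like that of Parp11 (0.58), which missed the threshold, so that the call alone does not set these 2 genes apart. The call of Parp3 ended without any 1 array other than IL2 replicate 1 (limma adjusted p of 0.0758 to 0.145) and with trend and robust settings (0.0583).

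Parp8 (10412345; chr13:116850842-117026019) had intensities of 1194, 772 and 931 in the untreated arrays and 799, 897, 896 and 876 in the IL2 arrays. The IL2 arrays lay inside the untreated range. Its log2 fold change was -0.13 (SE 0.14, 95% interval -0.47 to 0.20, limma adjusted p = 0.782).

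Set against each gene's own untreated mean, the interferon-linked genes were higher in every IL2 array. Their median difference was 1.09, 1.26, 1.76 and 1.34 log2 units in IL2 replicates 1 to 4, and the lowest single gene in these arrays lay at 0.46 to 0.60. The DNA-repair genes had medians of -0.10 to 0.12 in the same arrays, with Parp3 as the highest of the 3 in each. The untreated arrays were themselves spread, with interferon-linked medians of 0.34, -0.36 and 0.06 in replicates 2, 3 and 4. Within the 4 arrays whose titles give the time (replicates 3 and 4 of both groups), the log2 fold changes of Parp9, Dtx3l, Parp14 and Parp12 were 2.05, 1.70, 2.09 and 1.70. Within the other 3 arrays, of which 1 was untreated, they were 0.92, 1.05, 0.90 and 0.70. The direction was the same in both sets for all 6 interferon-linked genes and Parp3, the difference between the sets was not tested, and the limma adjusted p-values of these 4 genes were 0.0689 to 0.0992 in the first set and 0.356 to 0.452 in the second, where the lone untreated array was assumed to vary like the IL2 arrays.

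**Figure D4:**
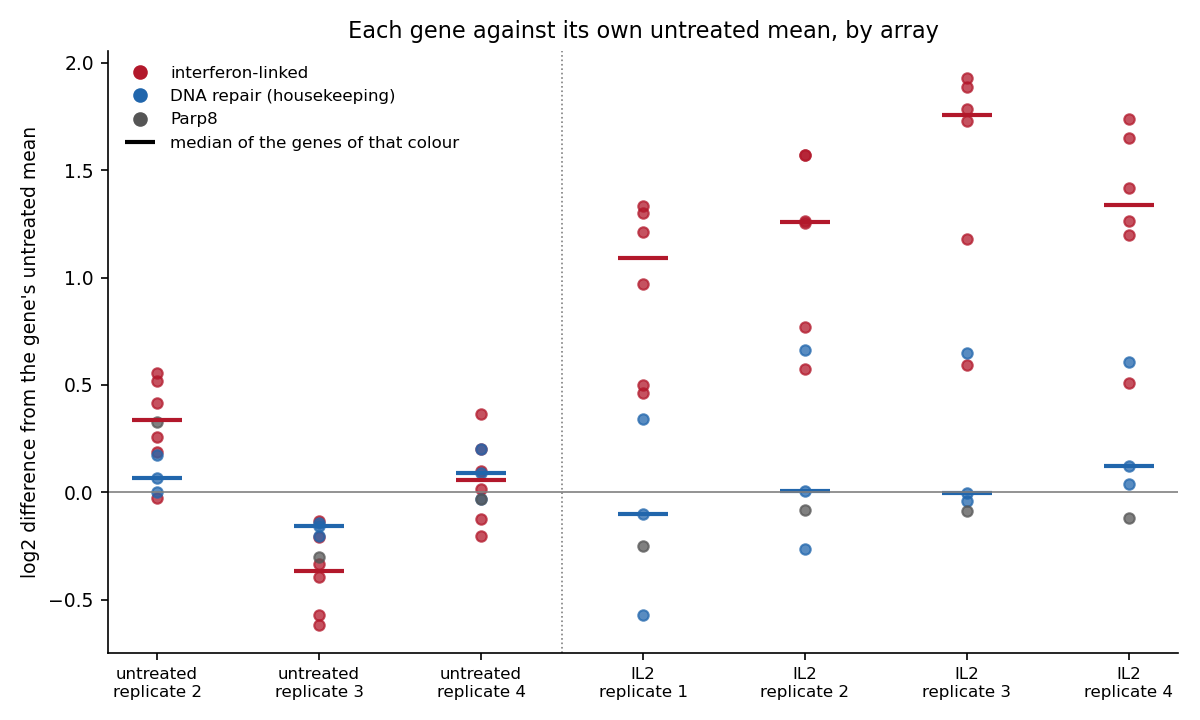
Log2 difference of each gene from its own untreated mean (vertical axis) in each of the 7 arrays, with horizontal bars at the median of the 6 interferon-linked genes (red) and of the 3 DNA-repair genes (blue). The red bars lie at 1.09 to 1.76 in the IL2 arrays and the blue bars at -0.10 to 0.12.

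The remaining PARP family genes showed little difference. Of 7 listed, 6 had a cluster with 1 symbol, and limma called 0 of them (0 with an unadjusted p under 0.05). Their log2 fold changes ran from -0.17 to 0.27 with a median of -0.07. The highest was that of Zc3hav1, which encodes the zinc-finger antiviral protein (PARP13, without enzyme activity), at 0.27 (SE 0.16, limma adjusted p = 0.558). Its intensities were 620, 487 and 571 in the untreated arrays and 542, 624, 817 and 736 in the IL2 arrays, with overlap. Parp4 shares its cluster with another gene and was not analysed here.

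Genes that remove or read ADP-ribose were not called either. Of 13 measured (of 16 listed), limma called 0, and their median was 0.07. An unadjusted p under 0.05 was seen for 2 of the 13, against 2662 of all 19752 genes. Nudt5 was called higher with array quality weights, with the dimmer genes left out and after renewed quantile normalization. In the fit over all genes it had the widest difference of the list, 0.71 (limma adjusted p = 0.0921, SE 0.18). It encodes a hydrolase of free ADP-ribose, and its intensities of 230, 164 and 164 in the untreated arrays were all below the 241, 293, 319 and 365 of the IL2 arrays. Of 13 measured repair partners of PARP1 (of 14 listed), limma also called 0, with 3 at an unadjusted p under 0.05 and a median of 0.13. Xrcc5, which encodes the Ku80 end-binding protein, had the largest value among them at 0.69 (SE 0.22, limma adjusted p = 0.200).

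Of 15 measured genes of NAD supply and use (of 16 listed), 1 rose and 1 fell, with a median of -0.02. Nampt, which encodes the rate-limiting enzyme that recycles nicotinamide to NAD+, the substrate of PARPs, had intensities of 715, 413 and 577 in the untreated arrays and 1170, 1366, 1501 and 1358 in the IL2 arrays. It rose by 1.28 (SE 0.18, limma adjusted p = 0.0128), or 2.42-fold, a call that ended without untreated replicate 4 or IL2 replicate 2, 3 or 4 (limma adjusted p of 0.0545 to 0.0700). Nadk, the kinase that turns NAD+ into NADP+, fell by 0.64 on the log2 scale (limma adjusted p = 0.0453, SE 0.13). Its intensities were 1413, 1259 and 1571 in the untreated arrays and 768, 910, 885 and 1072 in the IL2 arrays. The call of Nadk held only without IL2 replicate 4 among the 7 removals of 1 array, and it ended with all arrays kept under array quality weights (limma adjusted p = 0.0577) and under trend and robust settings (0.0545).

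Among 15 measured genes of interferon signalling (of 16 listed), 5 rose and 1 fell. Their median log2 fold change was 0.20 (0.00 without untreated replicate 3, and 0.06 after renewed quantile normalization). Whether they act on the PARP genes in these cells was not tested. Ifng, which encodes interferon-gamma, rose by 3.47 (SE 0.14), from intensities of 152, 159 and 137 to 1488, 1469, 2123 and 1619. Ifnb1, which encodes interferon-beta, stood at -0.07 (limma adjusted p = 0.903, SE 0.15, named after its value was seen). Its intensities were only 39, 53 and 54 in the untreated arrays and 52, 47, 38 and 47 in the IL2 arrays. Its mean signal was at percentile 16.9 of all genes, and at so low a signal a change could be missed. The factor genes Irf7 (1.93, SE 0.36), Irf1 (1.66, SE 0.19) and Irf8 (1.22, SE 0.18) rose, as did Stat2 (1.53, SE 0.26), which encodes a transcription factor of type I interferon signalling. Ifngr2, a chain of the interferon-gamma receptor, fell by 0.84 on the log2 scale (SE 0.15). Of these genes, 2 rose when IL2 replicate 2, IL2 replicate 3 or untreated replicate 4 was left out, and 3 without untreated replicate 2 or 3 or IL2 replicate 4. The calls of Ifng and Irf1 held without each array in turn. Irf7 and Stat2 lost theirs without any array but IL2 replicate 1, and Irf7 also with the replicate block (limma adjusted p = 0.0531). The call of Irf8 ended without untreated replicate 4 or IL2 replicate 2 or 3, and that of Ifngr2 without these or untreated replicate 2.

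Interferon-stimulated genes outside the PARP family mostly rose as well. Of 26 measured (of 30 listed), 23 rose and 0 fell, and the median log2 fold change of 1.89 stood beside 1.36 for the 6 interferon-linked PARP genes. The largest changes were those of Cxcl9 (4.54, SE 0.12), Cxcl10 (3.46, SE 0.19), Iigp1 (3.16, SE 0.11), Zbp1 (2.96, SE 0.25), Usp18 (2.90, SE 0.33) and Ifit3 (2.81, SE 0.24), which encode CXCR3 ligands, a GTPase, a nucleic acid sensor, an ISG15 protease and an antiviral protein. These 6 were named for their size. The whole list ran from 0.75 to 4.54, and the interferon-linked PARP genes from 0.58 to 1.63. The count that rose was 10 without untreated replicate 4, 12 without untreated replicate 3 or IL2 replicate 4, 13 without IL2 replicate 2 and 14 without IL2 replicate 3. The members of this list were chosen from general knowledge with the response of interferon-stimulated genes in these arrays already known, so that its count is no separate support for the PARP genes.

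**Figure D5:**
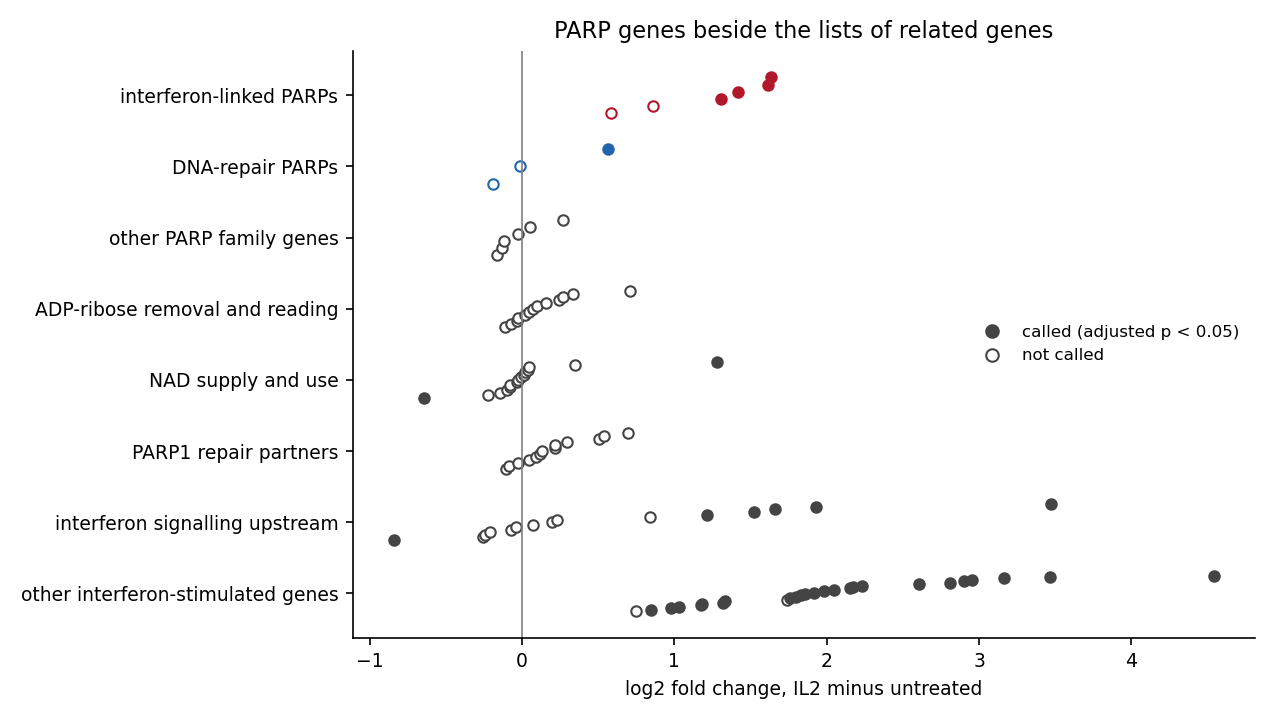
Log2 fold change (horizontal axis, IL2 minus untreated) of every measured gene of the 2 PARP classes and of 6 lists of related genes, filled where called by limma. The interferon-linked PARPs lie at 0.58 to 1.63, the other PARP family genes at -0.17 to 0.27 and the interferon-stimulated genes outside the family at 0.75 to 4.54.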

How the data were processed

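The data were 7 arrays, 4 IL2 and 3 untreated, grouped by the sample labels. The intensity values were deposited by the authors as linear numbers, 1 for each cluster on each array (the scale was read from the values). RMA and Affymetrix Power Tools are named in the labels, per the submitters' processing notes. Versions, settings and which arrays were normalized together are not given in the sources used here. Values were taken to log2 with no offset and no filter. Of 24922 probes, 21425 had 1 gene symbol in the platform annotation, 1399 several and 2098 none. The brightest single-symbol probe by mean over the 7 arrays was kept, leaving 19752 genes.

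Genes were fitted in limma 3.58.1 (R 4.3.3) with IL2 as the only factor and eBayes (7.68 degrees of freedom), with Benjamini-Hochberg adjustment over all genes and a threshold of 0.05. The fit was tested on simulated data. Equal values on at least 2 arrays occurred in 53.3% of probes and in 0 of the 10 genes described. Levels of different probes were not compared, but the summed marker intensities add them, so that bright probes weigh most. In the untreated arrays Lyz2 alone had 6025 to 7040 of the 13430 to 14420 of the monocyte and macrophage markers. The number of arrays limits the precision.

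The genes and lists were chosen with earlier results of these data known. Named genes were all 10, the called genes of each list (at most 6 by size of change, or the largest difference where none was called), the neighbours on chromosome 16 and selected markers. Other genes are marked as named after their value was seen. Alternatives were the replicate number and the style of sample titles as blocks, subsets by title style, quantile normalization again, median centring, a signal filter, array weights (statmod 1.5.0), eBayes with trend and robust, the mean of probes, and each array left out. Applying them to lists and genes outside the PARP family was decided after the data had been seen.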

Additional observations from a re-analysis of the deposited data

Results flagged for a closer look

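3 of 39 genes examined had 1 IL2 array far from the other IL2 arrays by Dixon's test, which chance gives for about 1 in 20 groups of 4. In each it was IL2 replicate 1, the lowest. For Parp3 its log2 intensity was 8.44 against 8.71 to 8.76 in the others, a gap of 0.833 of the range. For Irf1 it was 10.38 against 10.89 to 10.92, a gap of 0.945. For Kpna1 it was 8.628 against 8.995 to 9.025, a gap of 0.926. IL2 replicate 1 is also the IL2 array with no untreated partner of the same number.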

How the results depend on the processing

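Within the arrays titled without the time, 1 of them untreated, the 6 interferon-linked PARP genes had log2 fold changes of 0.36 to 1.05. Within the arrays titled with the time, 81 of all genes were higher, and 0 of the interferon-linked PARP genes. Of 8 alternatives that left no array out, 1, the replicate block, took nothing for its fold changes from the unpaired IL2 replicate 1. The count of interferon-linked PARP genes that rose was 4 to 6 under these 8 alternatives. It was 1 to 5 with 1 array left out: 1 without untreated replicate 4 or IL2 replicate 2, 3 or 4, with Dtx3l the gene that kept its call. The count of DNA-repair PARP genes called (Parp3) was 0 within either set of arrays and with trend and robust settings, and 0 to 1 with 1 array left out. Log2 fold changes of genes that were not called changed sign. Parp1 was 0.041 and Parp8 0.063 within the arrays titled with the time, and Parp8 was -0.284 to 0.031 with 1 array left out. Parp2 was 0.104 within the arrays titled with the time, 0.034 with array weights, 0.014 with centred arrays and with the replicate block, and -0.087 to 0.073 with 1 array left out. The cause was not tested.

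Quantile normalization again called 730 genes higher and 628 lower (53.8% of calls higher, against 69.7%). With 1 array left out, 134 to 517 were higher and 65 to 152 lower. Whether the replicate numbers pair the arrays could not be settled from the values. In their deviations from the group means, same-numbered arrays correlated at 0.46, -0.30 and 0.31 for replicates 2, 3 and 4. Differently numbered arrays correlated at -0.484 to 0.454. With the replicate number as a block, 554 genes were higher and 5 of the 6 interferon-linked genes rose (4 without it, with Parp11 added). IL2 replicate 1 has no untreated array of its number and so adds nothing to the fold changes under this block. They equalled those with that array left out (1.716 for Parp9 and 0.624 for Parp11 in both fits). The number of arrays limits the precision, and no background signal per probe was used here.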

Other observations

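A cluster with 2 symbols, Parp4 and Mphosph8, was left out of the tests because its signal cannot be assigned to 1 gene. Its intensities were 276, 208 and 273 in untreated replicates 2, 3 and 4 and 268, 276, 281 and 305 in IL2 replicates 1 to 4, with overlap between the groups and untreated replicate 3 again the lowest array.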
